A study of Canis lupus familiaris with 6 samples.

Results

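The tetraspanin family was examined in MDCKII, an epithelial line from dog kidney that polarizes in culture, grown as cysts in Matrigel (3D) or as a flat monolayer on plastic (2D). Members were probe sets of an Affymetrix canine array whose only annotated gene symbol was TSPAN with a number, CD9, CD37, CD53, CD63, CD81, CD82, CD151, UPK1A, UPK1B or PRPH2. The rule found 57 of 42924 probe sets, which stand for 30 of 15115 genes. Of the genes, 9 had 1 probe set, 15 had 2 and 6 had 3, and these are numbered within a gene as in the plot of all members, which gives their identifiers. Membership went by symbol, but the family itself was chosen by the differences between 3D and 2D on these arrays, TSPAN1 among the highest of them. The differences and limma results given below therefore describe the members and are not independent evidence about the family.

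The 3D cells were plated on a thin layer of 100 µl Matrigel, a basement membrane extract, in a 60 mm dish under medium with 2% Matrigel, and the 2D cells were cultured without Matrigel. Total RNA was taken 36 h after plating in both groups, and no genetic change is given for either. Each group had 3 arrays (n = 3), which the labels call biological replicates; nothing states whether they came from separate plating days. The arrays of replicates 2 and 3 shared a log2 scale, with medians of 7.06 to 7.08 over all probe sets. The replicate 1 arrays lay on another scale, with medians of 5.26 in 3D and 5.42 in 2D, so limma was run on replicates 2 and 3 alone (2 arrays of each group). Replicate 1 gives 1 untested difference per probe set. Its arrays also stood apart in control probe sets for the 2 ends of a transcript: the 3′ signal of actin exceeded the 5′ signal by 2.9 in 3D and 2.17 in 2D on the log2 scale, against 0.57 and 0.76 in 3D and 0.71 and 0.89 in 2D on replicates 2 and 3. For GAPDH the gap was 1.47 in 3D and 1.67 in 2D in replicate 1, and 0.31 and 0.40 in 3D and 0.20 and 0.16 in 2D on replicates 2 and 3. The part of these gaps in the members' values was not tested.

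Tetraspanins are small membrane proteins that cross the bilayer several times and carry a large extracellular loop. They bind one another and partners such as integrins, immunoglobulin-domain proteins and the metalloproteinase ADAM10, and so gather these into membrane microdomains. In epithelia they sit at cell contacts, on the apical and basolateral surfaces and in endosomes, and several are abundant on exosomes. CD9, CD63, CD81, CD82 and CD151 are made in many tissues, CD37, CD53 and TSPAN32 mainly in leukocytes, UPK1A and UPK1B in the urothelium and PRPH2 in photoreceptors.

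In 3D, transcripts of TSPAN1, TSPAN15 and CD82 rose and that of TSPAN12 fell, while the other 26 genes had no probe set past the threshold. TSPAN1 differed most, by 2.715 and 3.28 on the log2 scale on its 2 probe sets. At a limma adjusted p under 0.05, 5 of the 57 probe sets were higher in 3D and 2 were lower, against 3.65% and 2.96% of all probe sets. Both directions together made up 6.61% of all probe sets, and nothing is read from this comparison because the family was chosen with it known. Leaving out any 1 of the 4 arrays left 0 of the 57 called. The share of all probe sets called in those fits is not given, so nothing about the members is read from that 0. At an unadjusted p under 0.05, limma on all 4 arrays gave 18 members higher and 6 lower, against 11.6% and 11.8% of all probe sets. Without 1 array it gave 8 to 16 higher and 2 to 6 lower, against 5.44% to 12.8% and 5.13% to 12.6% of all probe sets. The difference of 35 of the 55 members with a difference other than 0 moved by over 1.5 times or turned its sign without 1 of the arrays, and none of the 7 called members was among them. A call needs a difference that is large against the spread of the same 4 arrays, so this is not separate evidence that the calls are stable. The same count was not made over all probe sets. As these are bulk samples, fewer cells with a transcript and less of it per cell cannot be told apart.

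The values of both 3D arrays lay above both 2D arrays for 25 member probe sets and below them for 11, and overlapped for 21. Over all probe sets, 25.1% lay above, 26.7% below and 51.8% either way. The median difference was 0.105 among members and -0.005 among all probe sets. In replicate 1 the medians were 0.11 and -0.14. The sign of the difference was the same in replicate 1 as in replicates 2 and 3 for 37 of 57 members (64.9%) and for 54.4% of all probe sets. Among called probe sets it was the same for 7 of 7 members and for 73.9% of those of the whole array. Of the members, 9 were dim, meaning that their mean over the 4 arrays was below the lower quartile of all probe sets, and none of the 7 called members was.

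**Figure D1:**
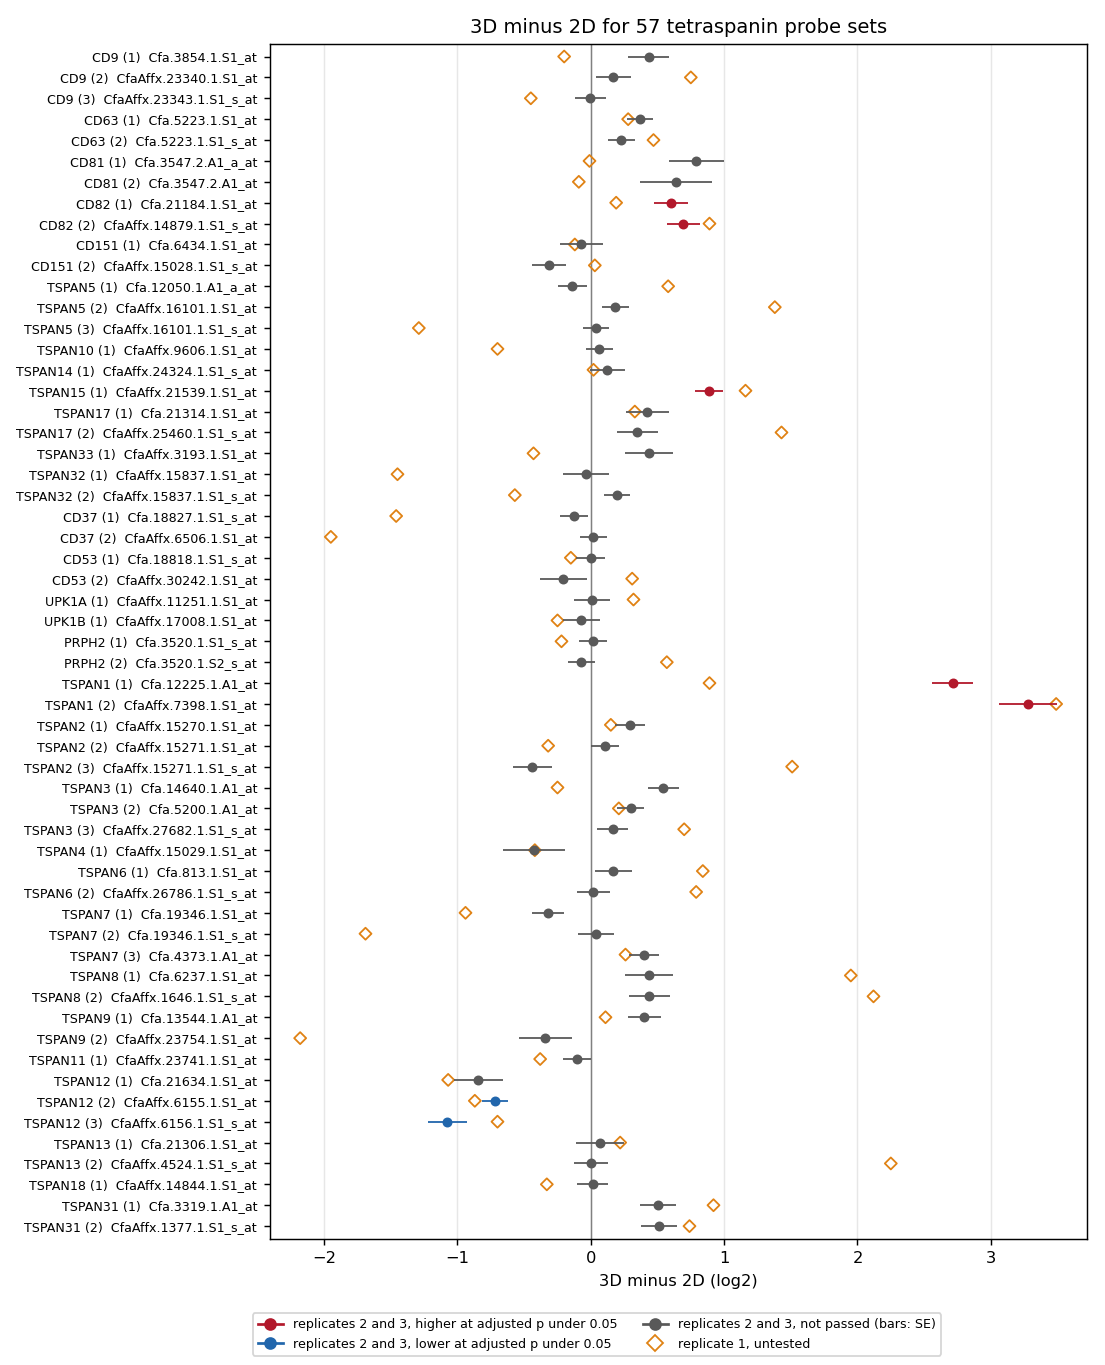
Difference between 3D and 2D (log2, x axis) for the 57 tetraspanin probe sets, with filled points and SE bars for replicates 2 and 3 (n = 2 per group) and open diamonds for replicate 1. TSPAN1 lies at 2.715 and 3.28, most other probe sets lie near 0 on replicates 2 and 3, and the replicate 1 values scatter more widely.

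TSPAN1 encodes a tetraspanin of glandular and other lining epithelia that is raised in several carcinomas. On probe set 2 its log2 level was 10.59 and 10.13 on the 3D arrays of replicates 2 and 3, against 6.83 and 7.33 on the 2D arrays. Both 3D arrays were far above both 2D arrays, and the gap was several times the distance between replicates. The difference was 3.28 (SE 0.218, n = 2 per group, limma adjusted p = 0.00450), a 9.71-fold higher level, and only 15 of all probe sets on the array had a higher difference. On probe set 1 the log2 level was 10.83 and 10.44 in 3D, against 7.84 and 8.0 in 2D. This gave a difference of 2.715 (SE 0.155, limma adjusted p = 0.00343).

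In replicate 1 both TSPAN1 probe sets were also higher in 3D, by unlike amounts. Probe set 2 read 7.18 in 3D and 3.69 in 2D, a difference of 3.49, whereas probe set 1 read 7.56 in 3D and 6.67 in 2D, a difference of 0.89. The 2D value of 3.69 was close to that array's lower quartile of 3.52. Leaving out each of the 4 arrays in turn moved the differences only within 3.03 to 3.53 and 2.52 to 2.91.

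**Figure D2:**
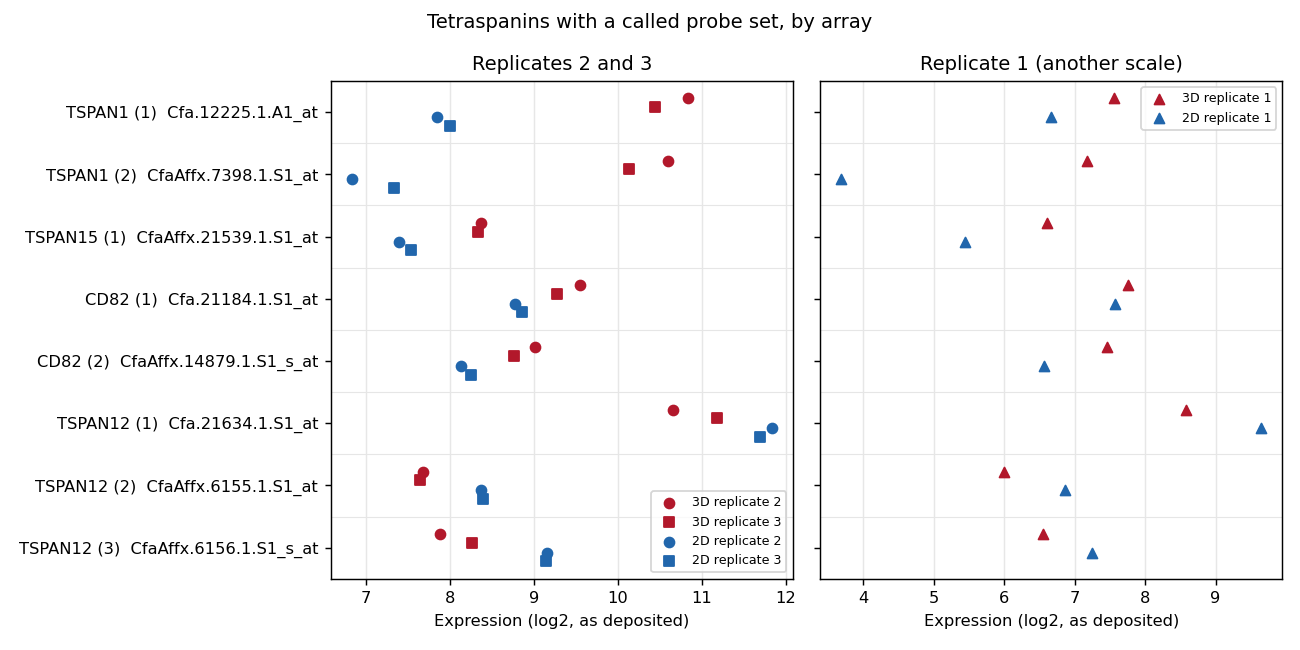
Log2 level (x axis) of each probe set of TSPAN1, TSPAN15, CD82 and TSPAN12 on each array, 3D in red above 2D in blue, with replicates 2 and 3 on the left and replicate 1, on its own scale, on the right. On the left the 3D and 2D arrays do not overlap for any of the 8 probe sets, and on the right each 3D value lies on the same side of its 2D value as on the left.

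TSPAN12 is part of the receptor complex for norrin, in which it joins the Frizzled receptor FZD4 and its coreceptor LRP5 and strengthens beta-catenin signalling, best known from retinal vessels. It was the only family member with a called fall, on 2 of its 3 probe sets. Probe set 3 had log2 levels of 7.88 and 8.26 in 3D, against 9.15 and 9.14 in 2D. The difference was -1.075 (SE 0.146, limma adjusted p = 0.0172), a level 2.11-fold lower in 3D. On probe set 2 the levels were 7.68 and 7.64 in 3D and 8.37 and 8.39 in 2D, with a difference of -0.72 (SE 0.0972, limma adjusted p = 0.0171).

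Probe set 1 of TSPAN12 read 10.65 and 11.18 in 3D and 11.83 and 11.69 in 2D. Its difference of -0.845 (SE 0.185, limma adjusted p = 0.0528) did not pass, and the groups did not overlap. As the mean of its 3 probe sets TSPAN12 passed, at -0.88 (limma adjusted p = 0.0160). Probe set 1 itself passed where dim probe sets were left out (limma adjusted p = 0.0456), and its other alternatives ran up to an adjusted p of 1. In replicate 1 all 3 probe sets were lower in 3D, with differences of -0.70, -0.87 and -1.07 on probe sets 3, 2 and 1. In that order they read 6.55 in 3D and 7.25 in 2D, 6.0 in 3D and 6.87 in 2D, and 8.58 in 3D and 9.65 in 2D.

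The genes that act with TSPAN12 were measured too. LRP5 differed by 0.28 (SE 0.103, limma adjusted p = 0.171), FZD4 by 0.01 (SE 0.143) and NDP, which encodes norrin, by 0.02 (SE 0.103), and none passed. A less bright LRP5 probe set differed by 0.04. A less bright NDP probe set differed by -0.27 (limma adjusted p = 0.309), without overlap of the groups. In replicate 1 that NDP probe set differed by -3.92 and the brighter NDP probe set by 1.32. FZD4 was dim on the 4 arrays.

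Among the broadly made membrane organisers, CD82 passed and CD9, CD63, CD81 and CD151 did not. CD82, also called KAI1, is known as a suppressor of metastasis that restrains cell migration. Its probe set 2 read 9.01 and 8.76 in 3D and 8.13 and 8.25 in 2D, a difference of 0.695 (SE 0.125, limma adjusted p = 0.0334), or 1.62-fold. Probe set 1 read 9.55 and 9.28 in 3D and 8.77 and 8.86 in 2D. Here the difference was 0.60 (SE 0.126, limma adjusted p = 0.0484), and it did not pass with median centring (adjusted p = 0.0551) or under trend and robust priors (adjusted p = 0.0623). Over all alternatives its adjusted p ran between 0.0309 and 1. On both probe sets the 3D arrays lay above the 2D arrays. Replicate 1 gave 7.46 in 3D and 6.57 in 2D on probe set 2 (0.89) and 7.76 in 3D and 7.57 in 2D on probe set 1 (0.19).

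CD81, a component of the B cell coreceptor and a common exosome marker, had higher values in 3D without a call. The log2 level on probe set 1 was 12.93 and 12.33 in 3D, against 11.94 and 11.74 in 2D, with a difference of 0.79 (SE 0.206, limma adjusted p = 0.0802). On probe set 2 it was 11.91 and 11.05 in 3D and 10.95 and 10.73 in 2D, with a difference of 0.64 (SE 0.273, limma adjusted p = 0.229). Most of the gap came from 3D replicate 2, while 3D replicate 3 was nearer to the 2D arrays. The mean of 24 poly-A control probe sets was also higher on 3D replicate 2 than on the 2D arrays, by 0.999 on the log2 scale, against 0.144 on 3D replicate 3, and its part in the CD81 values was not tested. Nor was its part in the values of other members on that array. Both probe sets of TSPAN1 and of CD82 also read higher on 3D replicate 2 than on 3D replicate 3. TSPAN15 was nearly level on them, and the TSPAN12 probe sets did not share a direction. Without 3D replicate 2 the CD81 differences were 0.49 and 0.21. In replicate 1 the control mean was 0.766 higher in 3D, while CD81 read 11.37 in 3D and 11.38 in 2D on probe set 1 and 10.35 in 3D and 10.44 in 2D on probe set 2.

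CD63, which cycles through late endosomes and marks exosomes, read 13.85 and 13.86 in 3D and 13.45 and 13.52 in 2D on probe set 1. The groups did not overlap, and the difference of 0.37 (SE 0.0985, limma adjusted p = 0.0844) did not pass. Its other probe set differed by 0.23, and in replicate 1 the differences were 0.28 and 0.47.

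CD9, known for its part in sperm and egg fusion and as a partner of PTGFRN, had 3 probe sets. Probe sets 1 to 3 differed by 0.435, 0.17 and -0.005, and none passed. On probe set 1 it read 12.41 and 12.75 in 3D and 12.27 and 12.02 in 2D, a difference of 0.435 (SE 0.155, limma adjusted p = 0.162), which was 0.265 without 3D replicate 3. On probe set 3 the values were 12.44 and 12.23 in 3D and 12.29 and 12.39 in 2D, and the groups overlapped (-0.005, SE 0.117). In replicate 1 these probe sets differed by -0.20 and -0.45, and CD9 probe set 2 by 0.75.

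CD151 binds the laminin-binding integrins and is needed for the glomerular filter and for skin integrity in people. Its values were 9.74 and 9.46 in 3D and 9.90 and 9.93 in 2D on probe set 2 (-0.315, SE 0.126, limma adjusted p = 0.203), and the difference was -0.175 without 3D replicate 3. On probe set 1 they were 11.93 and 11.50 in 3D and 11.75 and 11.82 in 2D, with overlap (-0.07, SE 0.158). The replicate 1 differences were 0.03 and -0.12.

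**Figure D3:**
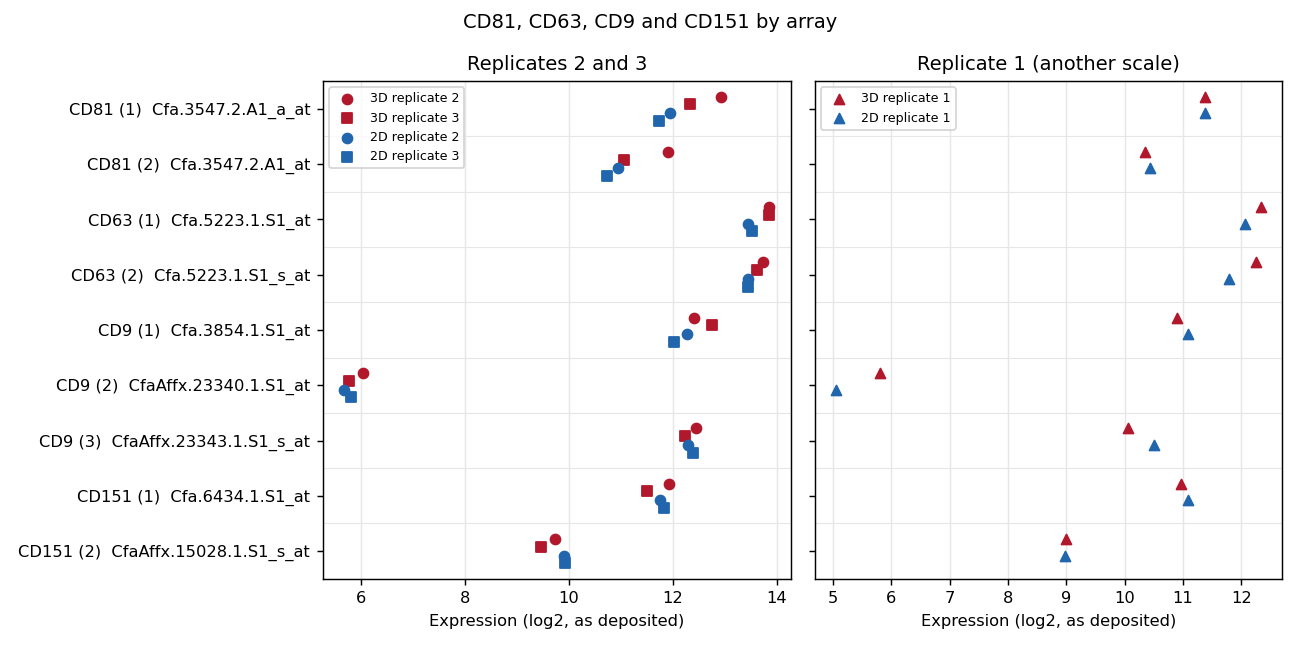
Log2 level (x axis) of the 9 probe sets of CD81, CD63, CD9 and CD151 on each array, 3D in red above 2D in blue, with replicates 2 and 3 on the left and replicate 1 on its own scale on the right. The CD81 and CD63 arrays of 3D lie above those of 2D on the left, and for CD81 the 2 replicate 1 values nearly coincide.

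The TspanC8 tetraspanins bind ADAM10, bring it out of the endoplasmic reticulum and steer it to particular substrates. Of the 9 probe sets of TSPAN5, TSPAN10, TSPAN14, TSPAN15, TSPAN17 and TSPAN33, the single one of TSPAN15 was higher in 3D and the other 8 did not pass. TSPAN15, the member known for directing ADAM10 to N-cadherin, read 8.37 and 8.33 in 3D and 7.39 and 7.54 in 2D. The arrays within each group were close, and the groups were well apart. The difference was 0.885 (SE 0.106, limma adjusted p = 0.0136), or 1.85-fold, and in replicate 1 it was 1.16, with 6.61 in 3D and 5.45 in 2D.

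ADAM10 itself did not pass, with log2 levels of 11.64 and 12.10 in 3D and 11.82 and 11.84 in 2D. Its difference was 0.04 (SE 0.164), and 0.155 on its second probe set. In replicate 1 these probe sets differed by -0.61 and -0.36. TSPAN33, known from B cells and erythroid cells, read 8.16 and 7.73 in 3D and 7.35 and 7.67 in 2D (0.435, SE 0.182, limma adjusted p = 0.221), with a difference of 0.22 without 3D replicate 2. In replicate 1 TSPAN33 was lower in 3D, with 6.49 in 3D and 6.92 in 2D (-0.43). The TSPAN17 probe sets differed by 0.425 and 0.35, and those of TSPAN10, TSPAN14 and TSPAN5 by -0.14 to 0.185, without a call. Within replicate 1 the TSPAN5 probe sets ran from -1.29 to 1.38, and 2 of the 3 were dim on the other arrays.

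None of the 6 probe sets of CD37, CD53 and TSPAN32, tetraspanins of blood cells, passed; their differences lay between -0.205 and 0.195. CD53 had the widest, with 6.41 and 6.42 in 3D and 6.88 and 6.36 in 2D on probe set 2, where the groups overlapped. Both CD37 probe sets were dim on replicates 2 and 3. In replicate 1 CD37 differed by -1.46 and -1.95 and TSPAN32 by -1.45 and -0.57. On TSPAN32 probe set 1 the log2 level was 10.24 and 10.56 in 3D and 10.62 and 10.25 in 2D on replicates 2 and 3, but 4.49 in 3D and 5.94 in 2D on replicate 1. For this probe set the scales were therefore much farther apart than the array medians are.

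The uroplakin and photoreceptor tetraspanins did not differ past the threshold, with differences of -0.07 to 0.015 over 4 probe sets. UPK1B, which pairs with UPK3A in the plaques of the bladder surface, read 11.85 and 12.20 in 3D and 12.05 and 12.14 in 2D, and the groups overlapped. In replicate 1 it read 10.10 in 3D and 10.35 in 2D. UPK1A, which pairs with UPK2, differed by 0.01, and its 2D value of 5.64 on replicate 2 was just under that array's lower quartile of 5.67. PRPH2, which shapes the rims of photoreceptor discs, differed by 0.015 and -0.07.

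Of the other 13 TSPAN genes, with 27 probe sets, TSPAN1 and TSPAN12 held the only calls. TSPAN3 came closest, with 7.10 and 6.94 in 3D and 6.39 and 6.56 in 2D on probe set 1, a difference of 0.545 (SE 0.117, limma adjusted p = 0.0510), and it passed where dim probe sets were left out (adjusted p = 0.0464). Its other probe sets differed by 0.30 and 0.165, and in replicate 1 the 3 differences were -0.25, 0.21 and 0.70. TSPAN31, a gene often amplified together with CDK4 in sarcomas, read 10.03 and 10.04 in 3D and 9.37 and 9.69 in 2D on probe set 1. That probe set differed by 0.505 (SE 0.133, limma adjusted p = 0.0825) and the other by 0.51 (SE 0.136, limma adjusted p = 0.0852), and both were higher in 3D in replicate 1, by 0.92 and 0.74.

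TSPAN8, a tetraspanin of gut and carcinoma cells that is found on exosomes, was among the members whose replicate 1 difference exceeded 2 in size. On probe set 2 its replicate 1 level was 11.06 in 3D and 8.94 in 2D, a difference of 2.12. The same probe set read 12.23 and 12.58 in 3D and 12.09 and 11.84 in 2D on replicates 2 and 3 (0.44, SE 0.157, limma adjusted p = 0.162). TSPAN8 probe set 1 read 12.74 and 13.06 in 3D and 12.67 and 12.26 in 2D (0.435), with a replicate 1 difference of 1.95. Without 3D replicate 3 the differences were 0.265 on probe set 2 and 0.275 on probe set 1, which was 0.23 without 2D replicate 3. For both probe sets the 3D arrays of replicates 2 and 3 lay above the 2D arrays, and the gap was wider in replicate 1.

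Other members of this kind were not alike between the scales. TSPAN13 read 5.70 in 3D and 3.45 in 2D in replicate 1 on probe set 2 (2.25), but 7.46 and 7.61 in 3D and 7.66 and 7.41 in 2D on the others, with overlap. The 2D value of 3.45 was just under that array's lower quartile of 3.52. TSPAN9, made in platelets among other cells, differed by -2.18 in replicate 1 on probe set 2, with 2.38 in 3D and 4.56 in 2D. That 3D value was below its array's lower quartile of 3.38. On replicates 2 and 3 that probe set differed by -0.34 (SE 0.200) with overlap, and the other TSPAN9 probe set by 0.40 (SE 0.124, limma adjusted p = 0.118) without.

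TSPAN4, which builds migrasomes on the trailing fibres of migrating cells, read 9.52 and 8.78 in 3D and 9.54 and 9.61 in 2D. The difference of -0.425 (SE 0.234, limma adjusted p = 0.347) was -0.055 without 3D replicate 3. TSPAN6 differed by 0.17 and 0.02, and by 0.84 and 0.79 in replicate 1. TSPAN2, best known from oligodendrocytes, had probe sets at 0.295, 0.105 and -0.44, and TSPAN7, a neuronal tetraspanin linked to X-linked intellectual disability, at 0.40, 0.04 and -0.32. For both genes 2 of the 3 probe sets were dim. TSPAN11 and TSPAN18 differed by -0.105 and 0.015.

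Probe sets of 1 gene did not always run alike. Of the 21 genes with 2 or more, 11 had a single sign on replicates 2 and 3 and 12 in replicate 1. The median range among the probe sets of a gene was 0.205 on replicates 2 and 3 and 0.79 in replicate 1. TSPAN1, CD82 and TSPAN12 had a single sign over all their probe sets on both scales, and TSPAN15 has 1 probe set.

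Genes whose products are textbook partners of tetraspanins were set beside the family, each through the probe set that was brightest on average on the 4 arrays. Of 30 on the list 26 were measured, of which 0 were higher in 3D and 1 was lower. Over all genes treated so, 4.17% were higher and 3.12% lower. At an unadjusted p under 0.05, limma gave 4 partner genes higher and 5 lower, against 12.5% and 12.6% of all genes. MET, the hepatocyte growth factor receptor, was the 1 that fell, with log2 levels of 10.21 and 10.35 in 3D and 10.78 and 10.78 in 2D. Its difference was -0.50 (SE 0.104, limma adjusted p = 0.0475), and did not pass under trend and robust priors (adjusted p = 0.0675), and over all alternatives the adjusted p ran between 0.0343 and 1. In replicate 1 MET read 8.30 in 3D and 9.57 in 2D.

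The integrin chains that CD151 and CD9 bind did not pass in this comparison. ITGA3 read 9.10 and 8.92 in 3D and 9.46 and 9.51 in 2D (-0.475, SE 0.110, limma adjusted p = 0.0621). It passed, at the same difference, where limma was run on the mean of each gene's probe sets (adjusted p = 0.0460). ITGB1 differed by -0.45 (SE 0.110, limma adjusted p = 0.0694), whereas ITGA6 (0.31), ITGA2 (0.34) and ITGB4 (0.365) had higher values in 3D on these probe sets. Less bright probe sets differed by 0.03 for ITGB4, 0.36, -0.105 and 0.53 for ITGA6, 0.41 and -0.055 for ITGA2, and -0.29 for ITGB1. None of them passed. In replicate 1 the brightest probe sets were lower in 3D for ITGA3 (-2.21), ITGB1 (-0.40), ITGA6 (-0.90), ITGA2 (-1.52) and ITGB4 (-1.38). The immunoglobulin partners PTGFRN and IGSF3 differed by 0.255 and 0.02, and the uroplakins UPK2, UPK3A and UPK3B by 0.005, -0.02 and 0.475. On its less bright probe sets UPK2 differed by 0.045 with overlap and by 0.41 without, and neither passed. The exosome genes PDCD6IP, TSG101, SDC1 and SDC4 lay between -0.325 and 0.14. PDCD6IP differed by -0.26 on its brightest probe set but by 0.37 and 0.45 on its other probe sets, none of which passed, and by 0.187 on their mean. ROM1, the partner of PRPH2, differed by -0.035.

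The median difference of the partner genes was 0.02 on replicates 2 and 3, against -0.01 for all genes. In replicate 1 it was -1.03, against -0.11 for all genes, and 21 of the 26 were lower in 3D there, against 54.8% of all genes. HBEGF, a growth factor that associates with CD9, differed by -4.12 in replicate 1, with 2.29 in 3D and 6.41 in 2D. That 3D value was below its array's lower quartile of 3.38. On replicates 2 and 3 HBEGF read 6.92 and 6.78 in 3D and 6.99 and 7.16 in 2D, a difference of -0.225 (SE 0.115, limma adjusted p = 0.312).

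**Figure D4:**
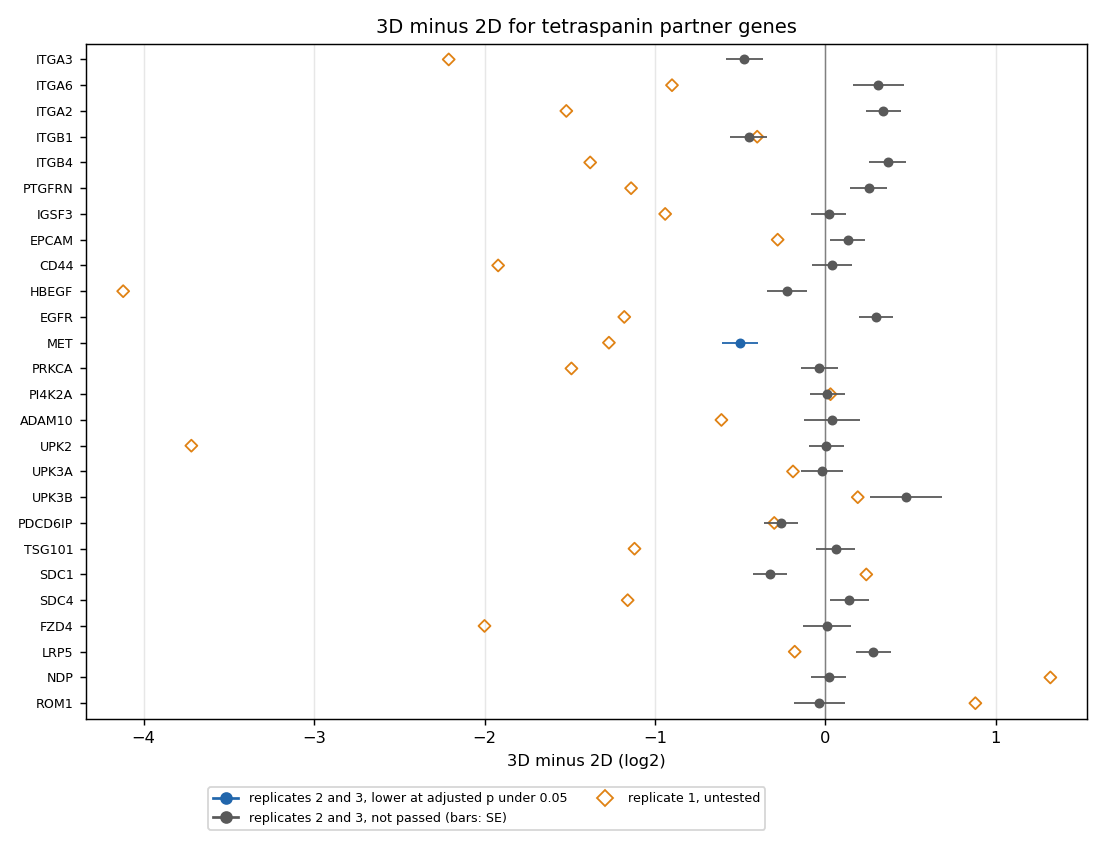
Difference between 3D and 2D (log2, x axis) for 26 partner genes of tetraspanins, with filled points and SE bars for replicates 2 and 3 (n = 2 per group) and open diamonds for replicate 1. On replicates 2 and 3 all genes lie between -0.50 and 0.475, whereas replicate 1 runs down to -4.12 for HBEGF.

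All 7 listed epithelial markers (CDH1, EPCAM, KRT8, KRT18, CDH16, OCLN, TJP1) were above the lower quartile of probe sets, and none passed. That quartile does not tell cell types apart here, since 4 of 4 measured leukocyte markers and 4 of 5 fibroblast markers were above it too. The summed level of the epithelial markers was 15.38 to 15.53 on the log2 scale in 3D and 15.37 to 15.46 in 2D. None of the measured markers of fibroblasts (5 of 5), leukocytes (4 of 5) or endothelium (3 of 3) passed. The leukocyte markers had a summed level of 8.73 to 8.75 in 3D and 8.56 to 8.57 in 2D, those of fibroblasts 8.91 to 8.94 in 3D and 8.87 to 8.90 in 2D, and those of endothelium 8.83 to 8.94 in 3D and 8.87 in 2D. COL1A2 and PECAM1 were dim. The part of other cell types in the family's values was not tested.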

How the data were processed

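Expression was measured on 6 one-colour Affymetrix arrays, 3 of 3D and 3 of 2D MDCKII cells, from cRNA made with 4 µg of total RNA per the labels' protocols. The deposited values are log2 levels per probe set. The submitters' processing notes name RMA and limma; their versions, the genome build and the making of the replicate 1 columns are not stated in these sources. Over all probe sets, which are not independent, arrays of replicates 2 and 3 correlated at 0.982 to 0.997 with each other and at 0.861 to 0.872 with those of replicate 1 (Pearson).

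The 111 control probe sets were left out. Symbols came from the platform annotation, and all 30 member symbols were found in the gene table of assembly UU_Cfam_GSD_1.0, used for names and gene order only. Differences on replicates 2 and 3 were tested in limma 3.58.1 (R 4.3.3; lmFit, then eBayes) over all 42924 probe sets. Tests were two-sided, p-values were adjusted by Benjamini-Hochberg, and calls were made under 0.05, with dim probe sets kept. Levels of different probe sets were compared only against the lower quartile and to take the brightest probe set of a gene. The number of arrays limits the precision. On simulated arrays of this design over 42924 probe sets, 100 probe sets were changed by 1 on the log2 scale and 100 by 2. Of these, 28% and 78% were called, with 0 false calls. In the data 6.61% of all probe sets were called, a far larger share than was changed in the simulation. The adjusted p depends on that share, so these percentages do not tell how many real changes of these sizes were missed. Python 3.11.15, pandas 2.3.3, numpy 2.4.6 and matplotlib 3.10.9 were used for tables and plots.

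Members, subgroups, partner list, markers and tests were chosen with earlier results of these data known. Values by array are given for members past the threshold, for CD9, CD63, CD81, CD82 and CD151, for members whose replicate 1 difference exceeded 2 in size, for partner genes past the threshold and for the widest difference in each other subgroup. TSPAN3, TSPAN31, TSPAN33, TSPAN4, TSPAN32, ADAM10, ITGA3 and HBEGF were added after their values were seen.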

Additional observations from a re-analysis of the deposited data

How the results depend on the processing

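The main counts were 5 tetraspanin probe sets higher and 2 lower in 3D, and 0 partner genes higher and 1 lower. With median centring they were 4, 2, 0 and 1, and without dim probe sets 6, 3, 0 and 1. Trend and robust priors gave 4, 2, 0 and 0. With probe sets averaged by gene, 3 tetraspanin genes of 30 were higher and 1 lower, and 0 and 2 partner genes. At an unadjusted p under 0.05, limma gave 17 tetraspanin probe sets higher and 6 lower with median centring (10.8% and 12.8% of all probe sets). It gave 19 and 5 under trend and robust priors (11.4% and 11.5%), and 16 and 3 without dim probe sets (13.8% and 13.7% of those kept). Averaged by gene, it gave 10 and 1 (11.3% and 13.7% of all genes). Their shares at the adjusted threshold are not given, so nothing about the members is read from these counts. All 4 counts were 0 with all 6 arrays without a block, with all 6 arrays quantile normalized and with all 6 arrays and the replicate block; at an unadjusted p under 0.05 these limma fits gave 1, 5 and 6 tetraspanin probe sets higher (0.177%, 2.53% and 3.41% of all probe sets) and 0, 3 and 3 lower (0.0676%, 1.61% and 2.93%), against 18 and 6 on the 4 arrays. Leaving out each of the 4 arrays gave 0 for every count. The replicate block on replicates 2 and 3 also gave 0 for each, with 14 tetraspanin probe sets higher and 4 lower at an unadjusted p under 0.05 (9.69% and 9.70% of all probe sets). For the fits that gave 0, the shares of all probe sets called are not given either. Nothing about the members is read from those counts. Within replicates 2 and 3, the replicate numbers did not pair the samples: deviations of same-numbered arrays from their group means correlated at 0.00127. Replicate 1 was not part of this check, and its 2 arrays shared a scale of their own. The called probe sets kept their sign in every fit. Their groups did not overlap on replicates 2 and 3, so leaving out 1 array could not turn it. The replicate 1 differences had that sign too, so the kept sign is not a separate result about the called probe sets. Among uncalled ones the sign turned in some fits: leaving out 1 array gave -0.285 to 0.145 for CD151 probe set 1 (above 0 without 3D replicate 3) and -0.11 to 0.10 for CD9 probe set 3 (above 0 without 2D replicate 3 or 3D replicate 3), and averaging by gene gave 0.20 for CD9 and 0.03 for TSPAN9, against -0.34 on its probe set 2. An average by gene takes in the gene's other probe sets, and a fit without 1 array has fewer samples. All 6 arrays without a block lie on unlike scales, and the SE of TSPAN15 was 0.850 there, against 0.106 on the 4 arrays. The causes were otherwise not tested.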

Other observations

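Some tetraspanin genes are neighbours in the gene order of assembly UU_Cfam_GSD_1.0, with no other annotated protein-coding gene between them, and their differences on replicates 2 and 3 can be set side by side. CD82, with differences of 0.60 and 0.695, lies next to TSPAN18, whose dim probe set differed by 0.015. CD81 (0.64 and 0.79, not passed) lies next to TSPAN32 (-0.035 and 0.195, not passed). TSPAN9 (0.40 and -0.34) lies next to TSPAN11 (-0.105), and none of their probe sets passed. CD151 and TSPAN4 are separated by 1 protein-coding gene and differed by -0.07 and -0.315 and by -0.425, also without a call.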
